A study of Mus musculus with 24 samples.

Results

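The 35 genes described here are the macrophage marker genes, a list of genes used to mark macrophages. Not all are limited to these cells, and Retnla is also made by adipocytes of white fat. They were chosen by symbol, with older names such as Emr1 for Adgre1 counted. Each gene was represented by its brightest probe, the one with the highest mean over the 24 arrays. A named probe was found for 34 of the 35, out of 19053 named genes on the array, and Spp1 was not analysed here.

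The arrays measured RNA from white adipose tissue (WAT) and brown adipose tissue (BAT) of male C57Bl/6J mice. Mice received the high fat diet EPA/DHA, the high fat diet corn oil or the low fat diet, with 4 arrays for each tissue and diet and 24 in all. EPA and DHA are eicosapentaenoic and docosahexaenoic acid, the long-chain fatty acids of fish oil, and corn oil is rich in linoleic acid. The 4 mice of a diet had been picked because their body weight and blood lipids were typical of that diet. The labels do not name the WAT depot, the age of the mice or the time on diet, and the extraction text names skeletal muscle although every array is labelled as adipose tissue. Nor do they say whether the WAT and BAT arrays of 1 replicate number came from 1 mouse.

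Macrophages live in all fat. They take up dead cells and lipid, and they respond to the fatty acids and chemokines that adipocytes release. In white fat of obese mice they gather around dying adipocytes in crown-like structures, where they take up lipid and switch on a lysosomal and lipid-handling programme that includes Trem2, Gpnmb and Lgals3. Resident macrophages of lean fat carry lectin and scavenger receptors such as Mrc1, Cd163 and Clec10a. Resistin-like molecule alpha, the product of Retnla, is secreted by such cells after interleukin signals that act through the factor STAT6, and also by adipocytes of white fat. The development of macrophages depends on the transcription factor PU.1.

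The promoters of 5 members are shown because the results turn on these genes or because they hold a motif found in some of the members. Each is a window of 250 bases before to 50 after the gene's start, from RefSeq on build GRCm38.p6. Capitals mark AGGAAGT, a core of the PU.1 motif, or its reverse complement, and TTC followed by any 4 bases and GAA, the spacing bound by STAT6. Retnla lies on the plus strand at chr16:48842359-48842658. Fcgr2b is on the minus strand at chr1:170976022-170976321. C1qb is on the minus strand at chr4:136886151-136886450. Lyz1 is on the minus strand at chr10:117292819-117293118 and Lyz2 on the minus strand at chr10:117282223-117282522.
Retnla: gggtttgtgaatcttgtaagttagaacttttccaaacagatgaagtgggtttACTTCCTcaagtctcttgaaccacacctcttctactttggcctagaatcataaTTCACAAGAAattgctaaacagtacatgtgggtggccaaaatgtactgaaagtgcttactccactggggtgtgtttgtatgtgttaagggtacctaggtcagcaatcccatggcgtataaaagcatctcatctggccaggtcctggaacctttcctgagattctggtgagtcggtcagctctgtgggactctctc
Fcgr2b: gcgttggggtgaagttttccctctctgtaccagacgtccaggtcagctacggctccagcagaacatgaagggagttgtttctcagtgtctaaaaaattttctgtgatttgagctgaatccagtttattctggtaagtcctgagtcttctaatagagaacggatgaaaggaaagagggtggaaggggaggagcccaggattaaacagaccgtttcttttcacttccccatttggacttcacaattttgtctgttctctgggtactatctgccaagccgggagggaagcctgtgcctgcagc
C1qb: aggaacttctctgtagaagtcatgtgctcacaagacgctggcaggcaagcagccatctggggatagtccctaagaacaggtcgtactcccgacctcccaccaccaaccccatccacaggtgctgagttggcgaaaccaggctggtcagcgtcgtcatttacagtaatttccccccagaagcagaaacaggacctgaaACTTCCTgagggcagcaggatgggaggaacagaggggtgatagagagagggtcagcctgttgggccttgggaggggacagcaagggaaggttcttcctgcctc
Lyz1: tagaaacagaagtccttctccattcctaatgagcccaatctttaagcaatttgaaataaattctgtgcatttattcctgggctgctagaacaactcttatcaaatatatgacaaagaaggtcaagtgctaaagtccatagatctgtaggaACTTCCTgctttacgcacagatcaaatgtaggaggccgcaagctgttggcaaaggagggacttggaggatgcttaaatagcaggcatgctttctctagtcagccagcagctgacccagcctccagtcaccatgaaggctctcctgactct
Lyz2: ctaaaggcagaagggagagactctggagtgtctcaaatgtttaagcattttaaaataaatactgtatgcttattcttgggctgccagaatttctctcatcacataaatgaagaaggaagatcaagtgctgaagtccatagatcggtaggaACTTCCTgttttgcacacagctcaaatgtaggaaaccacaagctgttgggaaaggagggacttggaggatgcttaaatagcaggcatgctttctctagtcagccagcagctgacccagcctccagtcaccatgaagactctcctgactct

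In Retnla the PU.1 core began at position -198 on the other strand and the STAT6 spacing at position -145, with position 0 the annotated start, and the matches did not overlap. C1qb held the core at position -53 and both lysozyme genes held it at position -100. Compared position by position without gaps, the Lyz1 and Lyz2 windows were identical at 201 of 300 positions, 67.0%. Apart from the promoters, the probes of these neighbouring copies may not tell their RNAs apart, because probe sequences were not aligned. The Fcgr2b window held neither motif in these letters. Over all 31 windows of 28 members, searched on both strands, the PU.1 core was present in 11 windows, 35.5%, against 9.4% of 32851 windows of all genes. These 11 were C1qb, C1qc, Chil3, Ctss, Fcgr1, Lyz1, Lyz2, Mgl2, Mrc1, Retnla and 1 of the Spp1 windows. The STAT6 spacing was present in 6 windows, 19.4% against 7.0% of all, those of Cd5l, Itgax, Lgals3, Retnla and both overlapping windows of Clec7a. CACGTG, the E-box of lysosomal gene regulators, was found in Ctsd alone, 3.2% against 7.2%. A match is a run of letters and not a measured binding site.

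All values are deposited log2 expression, where a difference of 1 is a 2-fold difference, and values ran from a floor near 7 to 14.79. The level of 1 gene's probe cannot be set against that of another. The number of arrays limits the precision. Brown adipocyte markers averaged 11.97 to 13 in BAT arrays and 7.93 to 10.38 in WAT arrays, and the 2 highest WAT arrays were EPA/DHA replicate 2 at 10.38 and corn-oil replicate 4 at 9.19. Liver markers averaged 9.61 to 13.18 in WAT and 7.17 to 8.50 in BAT. Skeletal muscle markers averaged 8.02 to 12.92 over 6 genes in BAT, and of these 6 genes 5, 6 and 5 were lower in WAT on EPA/DHA, corn oil and the low-fat diet.

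White fat carried more macrophage marker RNA than brown fat on every diet. Of the 31 members that could be tested between tissues, 25 were higher in WAT on EPA/DHA and 0 lower, 26 and 0 on corn oil, and 24 and 1 with the low-fat diet (limma, adjusted p under 0.05). Among all 14262 genes tested, 37.7%, 41.1% and 43.7% passed in either direction on these 3 diets, and 20.1%, 22.8% and 23.3% were higher in WAT. The median WAT minus BAT difference of the members was 1.33 on EPA/DHA, 1.55 on corn oil and 1.27 with the low-fat diet, whereas the median of all genes tested lay between -0.006 and -0.003. On all 3 diets 23 members were higher in WAT, against 15.5% of all genes, and for 24 members every WAT array lay above every BAT array, against 11.9%. In such bulk tissue, fewer macrophages and less RNA per macrophage cannot be told apart.

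**Figure D1:**
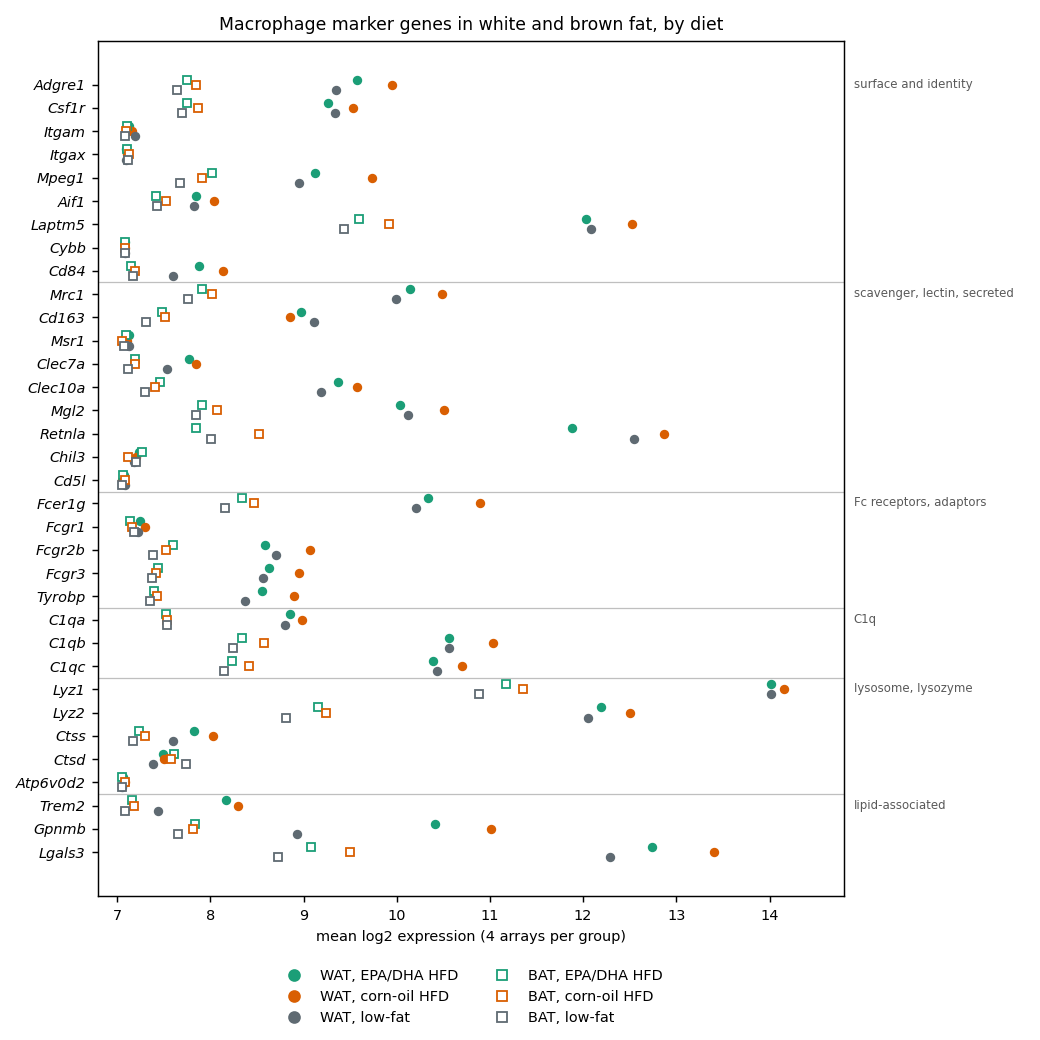
Mean log2 expression of the 34 members with a probe (x axis), with filled circles for WAT and open squares for BAT, 1 colour for each diet (HFD, high fat diet) and 4 arrays behind each mean. For 24 members every WAT array was above every BAT array, and Itgam, Itgax, Cybb, Msr1, Chil3, Cd5l, Fcgr1 and Atp6v0d2 lay near the floor of about 7 in both tissues.

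The largest difference was that of Retnla. Its probe ranged from 11.49 to 13.03 over the 12 WAT arrays and from 7.58 to 9.35 over the 12 BAT arrays. The WAT minus BAT difference was 4.04 ± 0.24 on EPA/DHA (± SE, adjusted p = 6.51e-11), 4.34 ± 0.24 on corn oil and 4.54 ± 0.24 with the low-fat diet. Retnla RNA is also made by white adipocytes, so its level is not that of macrophages alone. Lgals3, which encodes the galactoside-binding lectin galectin-3, followed with 3.67 ± 0.29, 3.91 ± 0.29 and 3.55 ± 0.29 in the same order of diets.

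The lysozyme genes, which encode enzymes that cut bacterial cell walls, also differed widely. Lyz1 read 14.23, 14.22, 13.54 and 14.06 in EPA/DHA WAT, 14.10, 14.31, 14.07 and 14.15 in corn-oil WAT, and 14.44, 13.69, 13.99 and 13.93 in low-fat WAT. In BAT it read 10.92, 11.16, 10.84 and 11.76 on EPA/DHA, 11.09, 11.50, 11.78 and 11.05 on corn oil, and 11.21, 10.73, 10.84 and 10.74 with the low-fat diet. The tissues did not overlap, and because the WAT values lie close to the highest value of the array the differences of 2.84 ± 0.20, 2.81 ± 0.20 and 3.13 ± 0.20 can be understated. Lyz2 differed by 3.04 ± 0.27 on EPA/DHA, 3.26 ± 0.27 on corn oil and 3.25 ± 0.27 with the low-fat diet.

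Laptm5, a lysosomal membrane protein of blood cells, read 12.48, 12.32, 11.55 and 11.78 in EPA/DHA WAT, 12.22, 12.63, 12.53 and 12.70 in corn-oil WAT, and 12.38, 11.92, 11.98 and 12.06 in low-fat WAT. In BAT it read 9.33, 9.58, 9.33 and 10.12 on EPA/DHA, 9.72, 10.13, 10.30 and 9.51 on corn oil, and 9.76, 9.63, 9.21 and 9.14 with the low-fat diet. The lowest WAT array was thus above the highest BAT array. The difference was 2.44 ± 0.22 on EPA/DHA, 2.61 ± 0.22 on corn oil and 2.65 ± 0.22 with the low-fat diet.

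The tissue difference ran through each functional group. Among surface and identity genes, Adgre1, which encodes a surface receptor used to define mature mouse macrophages, was 1.82 ± 0.18, 2.10 ± 0.18 and 1.71 ± 0.18 higher in WAT on EPA/DHA, corn oil and the low-fat diet. Csf1r, the receptor for the growth factor on which macrophages depend, was higher by 1.51 ± 0.12, 1.67 ± 0.12 and 1.64 ± 0.12. Among the lectin and scavenger receptors, the mannose receptor Mrc1 differed by 2.23 ± 0.15, 2.46 ± 0.15 and 2.23 ± 0.15. The haemoglobin scavenger receptor Cd163 differed by 1.49 ± 0.15, 1.34 ± 0.15 and 1.80 ± 0.15.

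All 3 complement C1q chains, which start the classical complement pathway, were higher in WAT on each diet, with differences from 1.26 to 2.46. The Fc receptor gamma chain Fcer1g, a signalling adaptor, differed by 1.995 ± 0.209, 2.42 ± 0.21 and 2.05 ± 0.21, and the adaptor Tyrobp by 1.15 ± 0.18, 1.47 ± 0.18 and 1.02 ± 0.18. The inhibitory Fc receptor Fcgr2b differed by 0.99 ± 0.08, 1.55 ± 0.08 and 1.32 ± 0.08. Fcgr2b and Fcgr3 are closely related in sequence, as are Clec10a and Mgl2, so the members of each pair are uncertain as single genes.

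The lipid-associated genes Trem2 and Gpnmb passed on both high-fat diets but not on the low-fat diet. On that diet their arrays were still fully separated, with Trem2 at 7.29 to 7.58 in WAT and 7.04 to 7.12 in BAT and Gpnmb at 8.58 to 9.14 in WAT and 7.43 to 7.91 in BAT. Trem2, a lipid-sensing receptor, was higher in WAT by 1.02 ± 0.28 on EPA/DHA (adjusted p = 0.00805) and by 1.11 ± 0.28 on corn oil (adjusted p = 0.00375), and its low-fat difference of 0.35 ± 0.28 did not pass (adjusted p = 0.367). Gpnmb, a transmembrane glycoprotein of lysosome-rich cells, was higher by 2.58 ± 0.58 on EPA/DHA and 3.20 ± 0.58 on corn oil, and its low-fat difference was 1.27 ± 0.58 (adjusted p = 0.0947). Over 10 other settings, the mean over its 4 probes among them, Gpnmb ran from 0.814 to 2.577 on EPA/DHA and 0.964 to 3.199 on corn oil. The test of whether these differences varied with diet is the interaction given further on, and neither gene passed it.

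Only 1 tested member was called lower in WAT, with values not far above the floor of about 7. Ctsd, the lysosomal protease cathepsin D, read 7.40, 7.44, 7.31 and 7.40 in low-fat WAT and 7.55, 7.96, 7.83 and 7.62 in low-fat BAT, without overlap. The difference was -0.36 ± 0.10 (adjusted p = 0.00571). On the other diets it read 7.45, 7.63, 7.45 and 7.43 in EPA/DHA WAT against 7.93, 7.44, 7.57 and 7.51 in EPA/DHA BAT, and 7.40, 7.59, 7.40 and 7.62 in corn-oil WAT against 7.68, 7.59, 7.62 and 7.41 in corn-oil BAT. Those groups overlapped, and neither difference passed (-0.13 ± 0.10 and -0.07 ± 0.10).

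The remaining exceptions lay nearer the floor. Itgam, the integrin chain CD11b, passed only on the low-fat diet, with 0.10 ± 0.03 between values of 7.18 to 7.20 in WAT and 7.07 to 7.09 in BAT. Fcgr1, the high-affinity Fc receptor, passed only on corn oil, with 0.14 ± 0.05 (adjusted p = 0.0177). Itgax, the integrin chain CD11c, Msr1, the scavenger receptor A, and the chitinase-like gene Chil3 differed by 0.08 or less on every diet and did not pass. Cybb of the phagocyte oxidase, the proton pump subunit Atp6v0d2 and Cd5l, a protein secreted by macrophages including those of the liver, were too dim to be tested, between 7.01 and 7.13 in all 24 arrays. At this level the arrays could not show a difference.

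Other genes of these cells were also more often higher in WAT than lower. Of 12 tested regulators and recruitment factors of macrophages, 7, 10 and 8 were higher in WAT on EPA/DHA, corn oil and the low-fat diet, and 0 were lower. Of 32 other macrophage genes, 20, 23 and 24 were higher and 0 lower. Among all genes tested, 20.1%, 22.8% and 23.3% were higher in WAT on these diets. Markers of other cells were called higher in WAT too, on EPA/DHA, corn oil and the low-fat diet in turn: 5, 5 and 5 of 6 fibroblast, 6, 6 and 7 of 7 mesothelial, 4, 4 and 4 of 6 endothelial, 4, 3 and 4 of 5 adipocyte, 4, 5 and 5 of 7 mast cell and eosinophil and 5, 5 and 5 of 5 liver markers. The part of these other cells in the result was not tested.

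Within white fat, most members stood higher on corn oil than on the low-fat diet, but none passed the threshold over all genes in the fit to the 12 WAT arrays. Of 30 members tested, 27 had a positive difference, against 48.5% of all genes, and the median was 0.39 against 0.00 for all genes tested. The adjusted test called 0 members, where it called 3.87% of all genes. At an unadjusted p under 0.05, limma gave 16 members higher and 0 lower, where 9.78% and 9.92% of all genes were higher and lower. In 13 members every corn-oil array was above every low-fat array, against 6.54% of all genes. The exceptions in sign were Cd163 (-0.26 ± 0.17), with 1 high low-fat array, and the near-floor genes Itgam and Msr1.

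**Figure D2:**
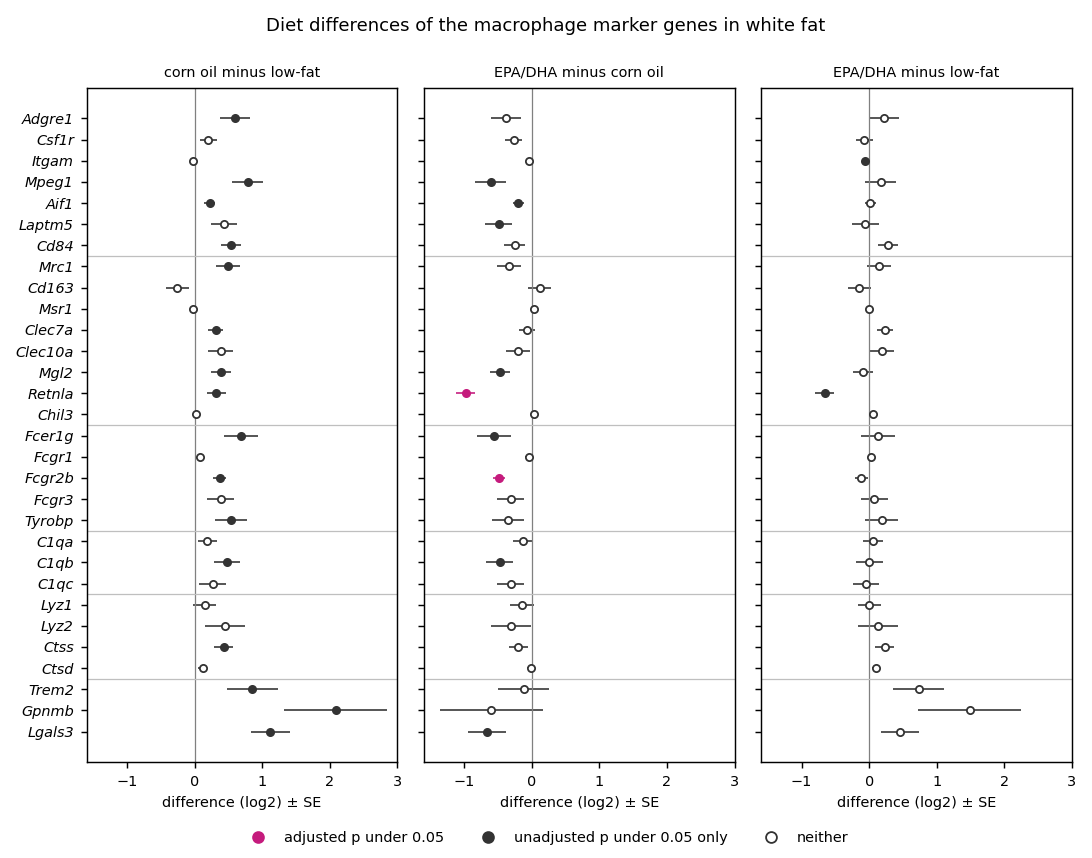
Difference in log2 expression (x axis) ± SE of the 30 members tested in WAT, with 1 panel for each pair of diets and 4 arrays in each diet group. Most points lie above 0 for corn oil minus low-fat and below 0 for EPA/DHA minus corn oil, where Retnla and Fcgr2b passed an adjusted p of 0.05.

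The smallest p-values belonged to 5 members of 4 functional groups. Fcgr2b read 8.88, 9.29, 9.01 and 9.10 on corn oil and 8.59, 8.58, 8.84 and 8.80 with the low-fat diet. The groups did not overlap, and the difference was 0.37 ± 0.09 (adjusted p = 0.0602). Without corn-oil replicate 1 it passed, at an adjusted p of 0.046, and a dimmer probe of the gene gave 0.30 ± 0.07 (adjusted p = 0.04). In 7 of 8 fits that left out 1 array it did not pass (adjusted p up to 0.141). Nor did it pass in 6 of 10 other settings (adjusted p up to 0.157). The mean over the gene's 5 probes gave a smaller difference of 0.147, which passed (adjusted p = 0.0425).

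Lgals3 read 12.93, 13.59, 13.18 and 13.93 on corn oil against 12.07, 12.41, 12.70 and 11.95 on the low-fat diet. All corn-oil arrays were higher, by 1.12 ± 0.29 on average (adjusted p = 0.0644). Cd84, an adhesion receptor of the SLAM family, read 7.90, 8.39, 8.05 and 8.22 against 7.65, 7.61, 7.68 and 7.48, with a difference of 0.54 ± 0.15 (adjusted p = 0.0942). Mpeg1, the pore-forming protein perforin-2, read 9.34, 9.81, 9.73 and 10.04 against 8.90, 8.79, 9.13 and 8.98, with 0.78 ± 0.23 (adjusted p = 0.106). Ctss, the protease cathepsin S that processes the invariant chain of MHC class II, read 7.83, 8.16, 7.87 and 8.24 against 7.62, 7.52, 7.60 and 7.64, with 0.43 ± 0.14 (adjusted p = 0.15). In these 4 genes too the corn-oil and low-fat arrays were fully separated. In 1 fit over all 24 arrays, which pools the spread of both tissues, Fcgr2b and these 4 passed, with adjusted p-values from 0.00989 to 0.0476. Of 10 alternative settings, Cd84, Mpeg1 and Ctss passed in this 1 alone, and Lgals3 in 3. None of these 4 passed in any of 8 fits that left out 1 array. Over the 10 settings, the mean over a gene's probes among them, Cd84 ran from 0.219 to 0.536 and Mpeg1 from 0.408 to 0.784. The pooled spread includes BAT arrays in which Cd84 (7.09 to 7.31) and Ctss (7.11 to 7.44) lay near the floor, where differences can be understated.

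The lipid-associated genes Gpnmb, Lgals3 and Trem2 had the largest differences of the list, and Gpnmb and Trem2 the largest standard errors. Gpnmb read 9.97, 12.04, 10.74 and 11.31 on corn oil and 8.58, 8.86, 9.13 and 9.14 with the low-fat diet. Each corn-oil array was above each low-fat array, but the corn-oil arrays themselves spanned 2.07, and the difference of 2.09 ± 0.76 had an adjusted p of 0.191. Only the brightest of the 4 Gpnmb probes is given for this comparison. Trem2 read 7.64, 8.79, 8.12 and 8.62 on corn oil against 7.29, 7.41, 7.58 and 7.47 on the low-fat diet, a difference of 0.85 ± 0.38 (adjusted p = 0.296). In both genes corn-oil replicate 1 was the array closest to the low-fat values.

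By functional group, all 3 tested lipid-associated genes, 3 of 5 Fc receptor and adaptor genes, 3 of 7 surface genes, 2 of 8 lectin, scavenger and secreted genes, 1 of 3 C1q genes and 1 of 4 lysosomal genes were separated without overlap. The median differences were 1.12 for the lipid-associated genes, 0.43 for the surface genes, 0.39 for the Fc receptors and adaptors, 0.31 for the lectin and scavenger group, 0.29 for the lysosomal genes and 0.27 for C1q. These are log2 differences of probes with different backgrounds and were not tested against each other. Lyz2 read 12.36, 12.63, 12.49 and 12.53 on corn oil and 12.97, 11.49, 11.88 and 11.88 with the low-fat diet, where replicate 1 was above all corn-oil arrays. Its difference was 0.45 ± 0.30 (adjusted p = 0.539).

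Some genes that recruit or specify macrophages, outside the list of members, did pass, where 3.87% of all genes passed in either direction. These lists were chosen with earlier results of these data known. Of 12 regulators tested, 3 were higher on corn oil and 0 lower, namely the monocyte chemokines Ccl8 (1.83 ± 0.35, adjusted p = 0.0247) and Ccl7 (1.25 ± 0.27, adjusted p = 0.0373) and the transcription factor Irf8 (0.43 ± 0.09, adjusted p = 0.0344). Of 32 other macrophage genes, 2 were higher and 0 lower, the lymphoid and myeloid surface protein Cd52 (1.12 ± 0.20, adjusted p = 0.0183) and Ly86, a partner of a Toll-like receptor relative (0.50 ± 0.10, adjusted p = 0.0269). As whole lists both were mixed in sign. The regulators had 7 positive and 5 negative differences (median 0.043), and the other macrophage genes 18 and 14 (median 0.027). Among all genes 48.5% were positive. The lysosome and lipid-handling list had 0 of 19 past the threshold, and 7 higher at an unadjusted p under 0.05 by limma, against 9.78% of all genes. Of 8 dendritic cell markers tested, 1 passed, the lectin Cd209a, 0.23 ± 0.05 higher (adjusted p = 0.0332). Of these 8 differences 5 were positive and 3 negative, with a median of 0.015. Markers of T and NK cells averaged 7.74 to 7.91 on corn oil and 7.71 to 7.77 on the low-fat diet, which overlapped. Of 8 monocyte and neutrophil markers, 4 differences were positive and 4 negative with a median of 0, and S100a8 alone was large (1.59 ± 0.38, adjusted p = 0.0533). Mast cell and eosinophil markers ran the other way, with a median of -0.34. At an unadjusted p under 0.05 by limma, 5 of 7 were lower on corn oil, against 9.92% of all genes. Among them was the protease Mcpt4 (-0.53 ± 0.10, adjusted p = 0.0276). Of 7 mesothelial markers 2 were lower at an unadjusted p under 0.05, against the same 9.92%. Their part in the result was not tested.

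White fat of mice on EPA/DHA stood below that of mice on corn oil in most members, and 2 passed. Of 30 members, 3 had a positive difference, against 51.1% of all genes, and 27 a negative one, with a median of -0.29 against 0.00 for all genes tested. The adjusted test called 0 higher and 2 lower, Retnla and Fcgr2b, where it called 2.34% of all genes in either direction and 1.17% lower. In the same 2 members every EPA/DHA array was below every corn-oil array, against 4.95% of all genes. At an unadjusted p under 0.05, limma gave 0 members higher and 9 lower, against 8.99% and 8.6% of all genes. Beside these 2, the 9 were Mpeg1, Aif1, Laptm5, Mgl2, Fcer1g, C1qb and Lgals3.

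Retnla, measured by probe ILMN_1226472, read 11.49, 12, 11.91 and 12.14 on EPA/DHA, against 12.86, 12.73, 13.03 and 12.84 on corn oil. The 2 diets did not overlap. Retnla averaged 11.89 ± 0.28 on EPA/DHA and 12.86 ± 0.12 on corn oil (SD, n = 4 each), a difference of -0.98 ± 0.14 (adjusted p = 0.00953). It passed without any 1 of the 8 arrays, with differences from -1.06 to -0.84. Low-fat arrays lay between, at 12.23, 12.59, 12.71 and 12.66, and overlapped with neither group.

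Fcgr2b, measured by probe ILMN_1228657, read 8.67, 8.65, 8.45 and 8.58 on EPA/DHA, against 8.88, 9.29, 9.01 and 9.10 on corn oil, again without overlap. It averaged 8.59 ± 0.10 on EPA/DHA and 9.07 ± 0.17 on corn oil (SD, n = 4 each), a difference of -0.48 ± 0.09 (adjusted p = 0.0292). Leaving out 1 array ended the call for corn-oil replicates 2, 3 and 4 and for EPA/DHA replicates 3 and 4. The difference then lay between -0.55 and -0.41 over all 8 such fits, and the highest adjusted p was 0.0818. It was also lost without the 2 WAT arrays that had raised brown adipocyte markers, a choice made after seeing the data (adjusted p = 0.092), and with the mean over the gene's probes, which gave -0.145 (adjusted p = 0.0522). Of its dimmer probes, the brightest gave -0.20 ± 0.07 (adjusted p = 0.162). A dimmer probe of Aif1, a calcium-binding protein of macrophages, passed at -0.27 ± 0.05 (adjusted p = 0.0221), whereas its brightest probe gave -0.20 ± 0.08 (adjusted p = 0.25).

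**Figure D3:**
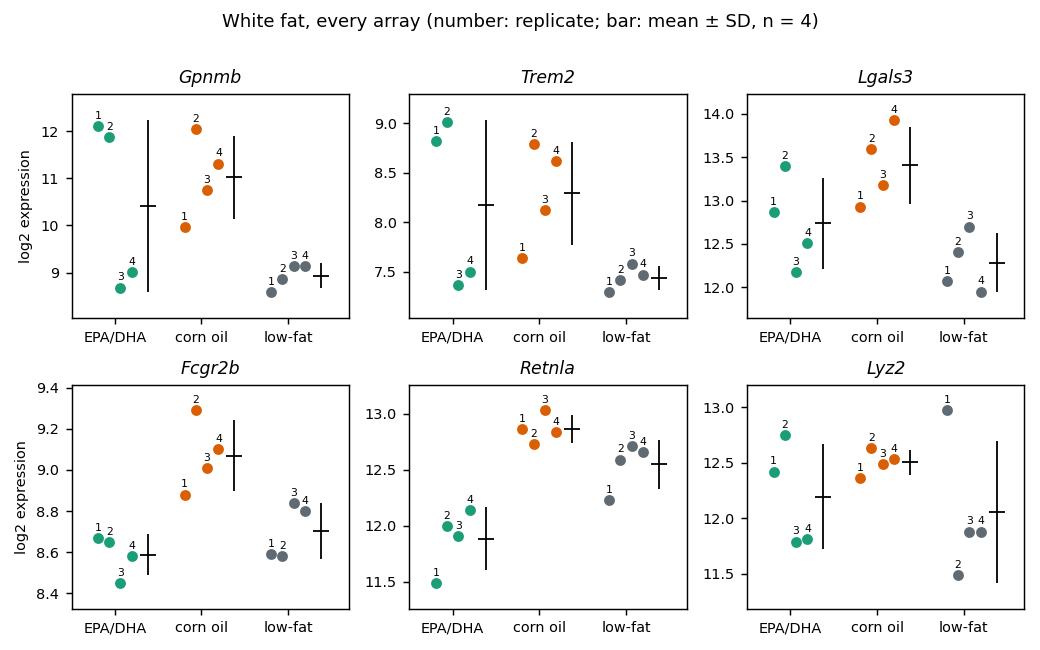
Log2 expression (y axis) of 6 members in every WAT array, by diet, with the replicate number above each point and the mean ± SD (n = 4) beside each group. In Retnla and Fcgr2b the EPA/DHA arrays lie together below the corn-oil arrays, whereas in Gpnmb and Trem2 replicates 1 and 2 of EPA/DHA are among the highest arrays and replicates 3 and 4 are near the low-fat level.

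The 3 lipid-associated genes had negative differences that did not pass the adjusted test. Gpnmb read 12.10, 11.87, 8.68 and 9.01 on EPA/DHA, against 9.97, 12.04, 10.74 and 11.31 on corn oil. EPA/DHA replicates 1 and 2 were at the level of the highest corn-oil array and replicates 3 and 4 were below every corn-oil array, so the difference of -0.60 ± 0.76 had an adjusted p of 0.787. Trem2 split in the same way, with 8.82, 9.01, 7.36 and 7.50 on EPA/DHA, against 7.64, 8.79, 8.12 and 8.62 on corn oil (-0.12 ± 0.38, adjusted p = 0.932). Lgals3 read 12.87, 13.40, 12.18 and 12.51 on EPA/DHA, against 12.93, 13.59, 13.18 and 13.93 on corn oil (-0.67 ± 0.29, adjusted p = 0.305).

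Of the other macrophage lists, Ly86 was lower on EPA/DHA by -0.51 ± 0.10 (adjusted p = 0.0317), 1 of 32 other macrophage genes, where 1.17% of all genes were called lower. None of the 12 regulators passed. At an unadjusted p under 0.05 by limma 5 were lower, against 8.6% of all genes, among them Irf8 (-0.38 ± 0.09, adjusted p = 0.0641) and Ccl8 (-1.16 ± 0.35, adjusted p = 0.134). The comparisons of EPA/DHA and of the low-fat diet with corn oil share the corn-oil arrays, so their opposite signs are not independent.

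Against the low-fat diet, EPA/DHA gave no called member in white fat. The adjusted test called 0 of 30, where it called 0.03% of all genes. At an unadjusted p under 0.05, limma gave 0 higher and 2 lower, Retnla and Itgam, against 4.54% and 4.52% of all genes. Of the 30, 21 had a positive difference, against 49.8% of all genes, with a median of 0.07 against 0.00. A p above the threshold does not show that the diets gave equal levels.

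Retnla was the member with the smallest p-value, at -0.66 ± 0.14 (adjusted p = 0.24), and its EPA/DHA arrays were all below its low-fat arrays, as in 2.46% of all genes. Itgam read 7.10, 7.18, 7.09 and 7.12 on EPA/DHA, against 7.19, 7.18, 7.19 and 7.20 on the low-fat diet, all near the floor (-0.07 ± 0.03). Clec7a, the beta-glucan receptor dectin-1, read 7.81, 8.14, 7.46 and 7.67 on EPA/DHA, against 7.69, 7.51, 7.52 and 7.43 on the low-fat diet (0.23 ± 0.12, adjusted p = 0.699). The EPA/DHA arrays of Clec7a overlapped with the low-fat ones. Gpnmb differed by 1.49 ± 0.76 (adjusted p = 0.706) and Trem2 by 0.73 ± 0.38 (adjusted p = 0.709), each with 2 EPA/DHA arrays above all low-fat arrays and 2 within their range. Over 10 other settings, the mean over its 4 probes among them, Gpnmb ran from 0.524 to 1.486.

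The members moved together from array to array. In WAT the mean of the 30 members was 9.65, 9.66, 9.01 and 9.19 in the EPA/DHA arrays, 9.45, 9.86, 9.60 and 9.79 in the corn-oil arrays and 9.26, 9.17, 9.30 and 9.30 in the low-fat arrays. The low-fat arrays were tightly grouped, and the EPA/DHA arrays ranged from below all low-fat arrays to within the range of the corn-oil arrays. EPA/DHA replicate 1 was the highest of its 4 arrays for 15 members and replicate 2 for 13, where 27.1% and 24.4% of all genes had their highest value in these arrays. Replicate 3 was the lowest for 26 of 30, against 25.5% of all genes. On corn oil, replicate 2 was highest for 19 and replicate 1 lowest for 21 of 30, against 22.8% and 26.5% of all genes.

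The median range of a member within a group was 0.68 on EPA/DHA, 0.42 on corn oil and 0.31 with the low-fat diet, against 0.15, 0.14 and 0.14 for all genes tested in WAT. The largest was that of Gpnmb on EPA/DHA, 3.42. Brown adipocyte markers in the EPA/DHA WAT arrays averaged 8.50, 10.38, 8.48 and 8.81, fibroblast markers 10.43, 10.29, 10.08 and 10.26, monocyte and neutrophil markers 7.95, 7.58, 7.40 and 7.47, and liver markers 12.40, 10.21, 10.91 and 9.61. Their part in the spread between these arrays was not tested. Corn oil gave the highest group mean in 26 of 30 members, against 35.7% of all genes, and the low-fat diet the lowest in 20, against 31.5%.

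**Figure D4:**
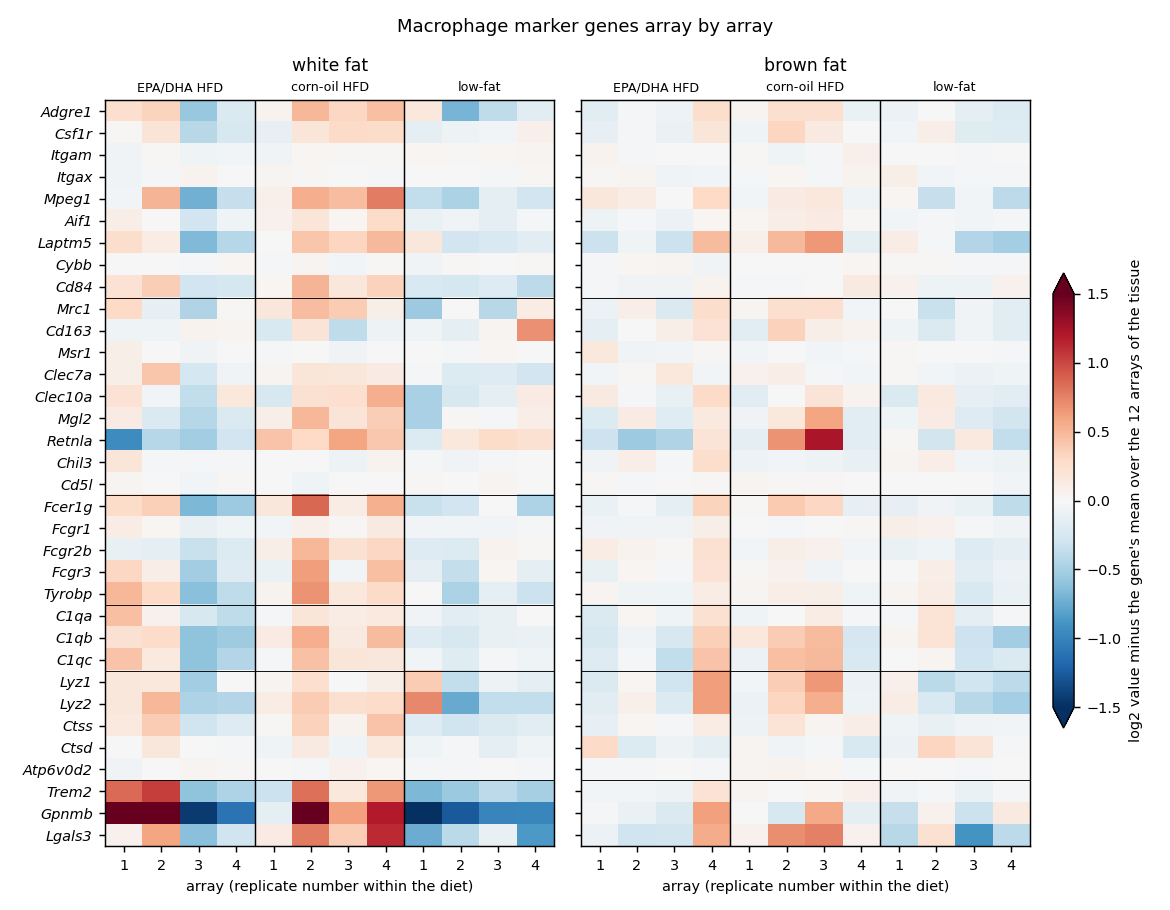
Each cell is a log2 value minus that gene's mean over the 12 arrays of the tissue (colour scale, clipped at 1.5 either way), with the 34 members in rows and the arrays in columns, WAT left and BAT right. In WAT most members are high in EPA/DHA replicates 1 and 2 and in corn-oil replicates 2 and 4, and low in EPA/DHA replicate 3, and in BAT most are high in EPA/DHA replicate 4 and corn-oil replicates 2 and 3.

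Some members stood apart from this shared movement. In WAT, Retnla was lowest in EPA/DHA replicate 1, where 15 members were highest, and all its EPA/DHA arrays were below its low-fat arrays. Cd163 read 8.92, 8.92, 9.03 and 9.02 on EPA/DHA, 8.75, 9.18, 8.60 and 8.90 on corn oil, and 8.92, 8.85, 9.02 and 9.67 with the low-fat diet. The highest Cd163 value was that of low-fat replicate 4 alone, and the other low-fat arrays lay within the range of the other diets. Lyz1 and Lyz2 were highest in low-fat replicate 1, in which Adgre1 and Laptm5 were also the highest of the low-fat arrays and the B cell marker Cd79b averaged 7.99, against 7.40 to 7.66 in the other low-fat arrays.

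Brown fat showed no called member between any pair of diets. On corn oil minus low-fat the adjusted test called 0 of 29 members and 0% of all 13400 genes. Still, 26 of 29 differences were positive, against 48.2% of all genes, with a median of 0.16 against 0.00. At an unadjusted p under 0.05, limma gave 7 higher and 0 lower, against 3.94% and 5.16% of all genes, and in 3 members, Fcgr2b, Aif1 and the near-floor Trem2, every corn-oil array was above every low-fat array, against 2.26% of all genes. Corn oil gave the highest group mean in 21 of 29 members, against 34% of all genes, and the low-fat diet the lowest in 21, against 35%.

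Lgals3 in BAT read 9.01, 8.80, 8.83 and 9.66 on EPA/DHA, 9.16, 9.80, 9.86 and 9.16 on corn oil, and 8.68, 9.33, 8.20 and 8.71 with the low-fat diet. Low-fat replicate 2 lay within the corn-oil range, and the corn oil minus low-fat difference of 0.76 ± 0.27 had an adjusted p of 0.472. Fcgr2b in BAT read 7.61, 7.55, 7.52 and 7.73 on EPA/DHA, 7.46, 7.59, 7.57 and 7.46 on corn oil, and 7.40, 7.44, 7.31 and 7.37 with the low-fat diet. Here both high-fat groups were above every low-fat array, with differences of 0.22 ± 0.05 for EPA/DHA (adjusted p = 0.657) and 0.14 ± 0.05 for corn oil (adjusted p = 0.492).

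Aif1 in BAT read 7.38, 7.43, 7.37 and 7.49 on EPA/DHA, 7.49, 7.56, 7.58 and 7.47 on corn oil, and 7.42, 7.44, 7.42 and 7.44 with the low-fat diet. Its corn-oil arrays were above the low-fat ones by 0.09 ± 0.04 (adjusted p = 0.527), and EPA/DHA was below corn oil by -0.11 ± 0.04 (adjusted p = 0.999). Mrc1 read 7.81, 8.0, 7.68 and 8.16 on EPA/DHA, 7.94, 8.14, 8.15 and 7.86 on corn oil, and 7.90, 7.56, 7.85 and 7.74 with the low-fat diet. Fcer1g read 8.23, 8.29, 8.18 and 8.66 on EPA/DHA, 8.34, 8.72, 8.63 and 8.20 on corn oil, and 8.20, 8.27, 8.23 and 7.94 with the low-fat diet. For Mrc1 and Fcer1g the corn oil minus low-fat differences were 0.26 ± 0.11 and 0.31 ± 0.13.

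EPA/DHA minus low-fat in BAT gave 0 of 29 called, against 0.00746% of all genes, with 2 higher and 0 lower at an unadjusted p under 0.05 by limma, against 2.08% and 2.69% of all genes. Of the 29, 22 had a positive difference, against 50% of all genes, and only in Fcgr2b was every EPA/DHA array above every low-fat array, against 1.18%. Beside Fcgr2b the second was Mpeg1, at 8.04, 7.98, 7.87 and 8.17 on EPA/DHA against 7.90, 7.52, 7.82 and 7.47 on the low-fat diet (0.34 ± 0.10, adjusted p = 0.827). Only EPA/DHA replicate 3 lay within the low-fat range. Cd163 read 7.30, 7.44, 7.53 and 7.66 on EPA/DHA against 7.37, 7.22, 7.38 and 7.28 on the low-fat diet (0.17 ± 0.10). Lyz2 read 8.91, 9.14, 8.86 and 9.69 against 9.18, 8.84, 8.65 and 8.56 (0.34 ± 0.21), and Clec10a, a galactose-type lectin, 7.52, 7.36, 7.28 and 7.68 against 7.17, 7.54, 7.27 and 7.23 (0.16 ± 0.11). These 3 overlapped between the diets.

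EPA/DHA minus corn oil in BAT gave 0 of 29 called, against 0% of all genes, with 1 higher, Chil3, and 2 lower, Aif1 and Retnla, at an unadjusted p under 0.05 by limma, against 2.69% and 2.3% of all genes. Of the 29, 7 had a positive difference, against 50.5% of all genes. Retnla in BAT read 7.82, 7.58, 7.68 and 8.32 on EPA/DHA, 7.99, 8.80, 9.35 and 7.96 on corn oil, and 8.14, 7.85, 8.27 and 7.76 with the low-fat diet. The EPA/DHA minus corn oil difference, -0.68 ± 0.29, had the sign seen in WAT, but corn-oil replicates 2 and 3 alone stood above the other groups (adjusted p = 0.999). Chil3 read 7.14, 7.30, 7.17 and 7.46 on EPA/DHA against 7.12, 7.15, 7.12 and 7.09 on corn oil, near the floor (0.15 ± 0.07).

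In BAT too, the members were high together in certain arrays. The mean of the 29 members was 8.14 in EPA/DHA replicate 4, against 7.78 to 7.87 in the other EPA/DHA arrays, and 8.09 and 8.16 in corn-oil replicates 2 and 3, against 7.88 and 7.84 in replicates 1 and 4. EPA/DHA replicate 4 was the highest of its group for 26 of 29 members, against 24.8% of all genes. Fibroblast markers were highest in the same 3 BAT arrays, at 9.18, 9.04 and 9.35, and at most 8.82 in the other 9. Skeletal muscle markers averaged 12.92 in EPA/DHA replicate 4 and 10.59 and 12.77 in corn-oil replicates 2 and 3. The part of these cells in the result was not tested.

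An interaction test on the 24 arrays asked whether a diet difference in white fat departed from that in brown fat. For EPA/DHA minus corn oil, 1 of 31 members passed, Fcgr2b, where 0.252% of all genes passed. Its difference was -0.48 in WAT and 0.08 in BAT, and the interaction was -0.56 ± 0.11 (adjusted p = 0.0286). The BAT arrays of these diets read 7.46 to 7.73 and the WAT arrays 8.45 to 9.29. The BAT difference had the other sign. Differences nearer the floor of about 7 can be understated, so its size is uncertain. The call ended without any 1 of 7 of the 16 arrays, which were BAT EPA/DHA replicates 1 and 4, BAT corn-oil replicates 1 and 4, WAT EPA/DHA replicates 3 and 4 and WAT corn-oil replicate 4, with values from -0.63 to -0.49 and adjusted p-values up to 0.0839. It also ended with array weights (adjusted p = 0.075), without the 2 WAT arrays with raised brown adipocyte markers (adjusted p = 0.0727) and with the mean over the gene's probes, which gave -0.155 (adjusted p = 0.165). Of the 31 members, 3 had a positive interaction, against 49.1% of all genes, and 0 were higher and 2 lower at an unadjusted p under 0.05, Fcgr2b and Mpeg1, against 3.58% and 4.87%.

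Retnla did not pass this test (-0.30 ± 0.34, adjusted p = 0.921), so its lower level on EPA/DHA was not shown to be limited to white fat. Mpeg1 had an interaction of -0.72 ± 0.26 (adjusted p = 0.478).

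For corn oil minus low-fat, 0 of 31 members passed, where 0.652% of all genes did, and limma gave 5 higher and 1 lower at an unadjusted p under 0.05, against 7.32% and 5.78% of all genes. The 5 were Cd84, Gpnmb, Mpeg1, Fcgr2b and Ctsd, and the 1 was Cd163. Of the 31, 23 had a positive interaction, against 51.9% of all genes. Cd84 had the smallest p-value (0.51 ± 0.16, adjusted p = 0.21), with 0.208 to 0.528 over 10 other settings. In BAT it read 7.14, 7.15, 7.18 and 7.31 on corn oil and 7.24, 7.09, 7.10 and 7.24 with the low-fat diet, overlapping and near the floor. Gpnmb in BAT read 7.77, 7.53, 8.34 and 7.63 on corn oil and 7.43, 7.83, 7.45 and 7.91 with the low-fat diet. Its interaction was 1.93 ± 0.82 (adjusted p = 0.375), with 0.625 to 1.927 over 10 other settings. That of Trem2 was 0.76 ± 0.40 (adjusted p = 0.504) and that of Cd163 -0.46 ± 0.21 (adjusted p = 0.402), or -0.28 without low-fat WAT replicate 4. The chemokine Ccl8, outside the list, passed with 1.80 ± 0.40 (adjusted p = 0.0494).

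For EPA/DHA minus low-fat, 0 of 31 members passed, where 0.00701% of all genes did. At an unadjusted p under 0.05, limma gave 0 higher and 2 lower, Fcgr2b (-0.34 ± 0.11, adjusted p = 0.58) and the near-floor Itgam (-0.09 ± 0.04), against 3.51% and 2.93% of all genes. Of the 31, 14 had a positive interaction, against 49.6% of all genes. The next were Cd84 (0.30 ± 0.16), Ctsd (0.23 ± 0.14) and Trem2 (0.67 ± 0.40).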

How the data were processed

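The authors deposited log2 expression for 45281 probes of an Illumina mouse array in 24 arrays. Per the submitters' processing notes lumi 2.18.0 was used, and background correction is not given in the sources used here. All arrays hold nearly the same set of values, at most 0.0069 apart once sorted, which hides any change in total signal. Whether the scale is plain log2 or a variance-stabilised one is not stated, and differences near the floor can be understated. Of the probes, 34885 had 1 gene symbol, 18 several and 10378 none, and 34818 were matched to RefSeq genes (GRCm38.p6). Probe sequences were not aligned.

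Diets were compared within a tissue by limma 3.58.1 in R 4.3.3, two-sided, on the 12 arrays of that tissue. Probes above the 40th percentile of the tissue mean (7.11) were kept, 27168 in each tissue, covering 13349 genes in WAT and 13400 in BAT. Of the members, 30 were kept in WAT, without Itgax, Cybb, Cd5l and Atp6v0d2, and 29 in BAT, without Itgam, Cybb, Msr1, Cd5l and Atp6v0d2. Tissue comparisons and interactions used the 24 arrays together and 29493 probes that passed in WAT or BAT. P-values were adjusted by Benjamini-Hochberg over all kept probes, with a threshold of 0.05. The fit was tested on simulated data. Replicates are arrays of separate samples as labelled, and p-values measure the spread between them. Because the mice were picked as typical of their diet, this spread may be narrower than that of all mice on the diet. Members and lists were chosen with earlier results of these data known. Members past the threshold in a diet comparison, or else the 5 with the smallest p, are given in every array, as are the tissue comparisons' largest differences. Alternatives were other filters, priors, scalings, array weights, probe choices, fits, a replicate block and leaving out arrays.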

Additional observations from a re-analysis of the deposited data

Results flagged for a closer look

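Single arrays stood far from the other 3 arrays of their group in 6 of 177 pairs of member and group. Chance flags about 1 in 20 such groups. In WAT, Chil3 read 7.39 in EPA/DHA replicate 1, against 7.17 to 7.19 in the other arrays, and Ctsd 7.63 in EPA/DHA replicate 2, against 7.43 to 7.45. Itgam read 7.1 in corn-oil WAT replicate 1, against 7.17 to 7.19. In BAT, EPA/DHA replicate 4 stood above its group for Fcgr1, at 7.25 against 7.10 to 7.11, and for Trem2, at 7.36 against 7.07 to 7.10. Itgax read 7.2 in low-fat BAT replicate 1, against 7.08 to 7.10. All 6 values lie within 1 log2 unit of the floor of about 7.

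The EPA/DHA minus corn oil difference of Fcgr2b differed between the tissues by the interaction test, -0.561 for WAT minus BAT (adjusted p = 0.0286). The call was lost in 7 of 16 fits that left out 1 array, with adjusted p-values up to 0.0839, and in 4 of 10 other settings, among which the mean over the gene's probes gave -0.155 (adjusted p = 0.165). The EPA/DHA arrays were the lower ones in WAT and overlapped with the corn-oil arrays in BAT. The BAT values, 7.46 to 7.73, lay closer to the floor, where differences can be understated.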

How the results depend on the processing

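The counts of members past the threshold stayed within 1.5 times the reported count in 212 settings and moved in 24. For WAT corn oil minus low-fat, the 0 became 2 with a filter at the 60th percentile, 1 with a trended and robust prior, 2 with the mean over a gene's probes and 5 with 1 fit over all 24 arrays, and ran from 0 to 1 with 1 array left out. The 5 were Cd84, Ctss, Fcgr2b, Lgals3 and Mpeg1. For WAT EPA/DHA minus corn oil, the 2 became 1, Retnla, with the mean over probes, with the replicate block and without the 2 WAT arrays with raised brown adipocyte markers, and ran from 1 to 2 with 1 array left out. Retnla passed in every setting run, with adjusted p-values from 0.000288 to 0.0397. For the interaction of EPA/DHA minus corn oil, the 1 became 0 with array weights, the mean over probes, the replicate block and without those 2 arrays, and ran from 0 to 1 with 1 array left out. The cause of these moves was not tested.

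Without 1 array, 3 WAT minus BAT differences that had not passed changed sign: Itgax on the low-fat diet was 0.011 without BAT low-fat replicate 1 (range -0.027 to 0.011), Chil3 on the low-fat diet 0.008 without BAT low-fat replicate 2 (-0.051 to 0.008), and Chil3 on EPA/DHA 0.026 without BAT EPA/DHA replicate 4 (-0.091 to 0.026). Of the other single-member results, 1122 kept their direction and side of the threshold, 11 newly passed and 19 no longer passed. The labels do not say that equal replicate numbers mark paired arrays, and not every pair correlated above 0.1. Deviations of equal numbers correlated at -0.27 to 0.55 between diets in WAT (median 0.13, above 0.1 in 7 of 12 pairs, against a median of -0.08 and 12 of 36 for unequal numbers), at -0.36 to 0.44 in BAT, and at -0.19 to 0.07 between WAT and BAT of a diet. With the block Fcgr2b had an adjusted p of 0.0583 in WAT EPA/DHA minus corn oil and 0.104 in the interaction, at unchanged differences. The replicate block changed no other count of members by over 1.5 times. Genes near the floor or near 14.79 limit what these arrays can show.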
